A study of Komagataella phaffii with 32 samples.

Results

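The 7 genes described here are TOH1, MXR2-1, PAS_chr2-1_0009, SKG3, CZF1, PAS_chr1-4_0696 and PAS_chr1-1_0101 of the yeast Komagataella phaffii (also called Pichia pastoris), out of 5040 genes measured. They were picked because their values were lower in a crz1 mutant than in wild type (WT). That difference is therefore described below with no test. Tests were kept for the rim101 libraries and for genes other than these 7.

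The 32 RNA sequencing libraries came from 3 strains: WT (X-33 per the sample labels, GS115 per the series text), a mutant of the transcription factor Crz1 (PJA-001, genotype label crz1_559) and a mutant of the transcription factor Rim101 (PJA-007, genotype label rim101_117). All 3 strains grew at 28 °C in rich YP medium with glycerol and were spun down and taken up in fresh medium with TAPS buffer. T0 was sampled at pH 5.5 right after resuspension, and T15, T30 and T60 were sampled after 15, 30 and 60 min at pH 8.0. WT and crz1 have n = 3 libraries at each time and rim101 has n = 2. The series asks what each factor contributes to the response to alkaline pH. The later libraries used here are all at pH 8.0, so pH and time in the new medium cannot be told apart. Neither how the mutations were made nor how many clones stand behind each mutant is given in the sources used here.

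In yeasts, alkaline medium lets calcium into the cell, which activates the phosphatase calcineurin. Calcineurin removes phosphates from Crz1, which then enters the nucleus and switches on genes of ion transport, the cell wall and signalling. Rim101 belongs to a separate pathway that senses ambient pH and in Saccharomyces cerevisiae acts mainly as a repressor.

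Values are RPKM, reads scaled to gene length and to the mapped reads of the library, so levels of different genes are set per length. Read from the spacing of low values, depth lay between 4.95 M and 16.54 M reads (M for mega) in the 30 libraries with 1 step size. Between 837 and 1423 genes were listed at exactly 0 in a library, among them in most libraries NUP192, which encodes an essential nuclear pore subunit. A listed 0 is therefore not read as absence. In 9 libraries, all at pH 8.0, the median tested gene stood at 46.6 to 56.6 RPKM, against 21.01 to 35.4 RPKM in the other 23. Of these higher-median libraries, 3 are of WT (T30 replicate 1, and T60 replicates 1 and 2), 3 of crz1 (the first replicate at each time at pH 8.0) and 3 of rim101 (T15 replicate 2 and the pair at T30). CRZ1 mRNA was not lower in crz1 (21.6 to 54.6 RPKM in 12 libraries) than in WT (16.6 to 34.3 RPKM in 12 libraries), so its level does not check the genotype. RIM101 mRNA overlapped between rim101 and WT at T0. At pH 8.0 it stood at 24.3 to 42.1 RPKM in the rim101 libraries and at 102.6 to 151.5 RPKM in those of WT, lower in rim101 by limma at T15, T30 and T60 (log2 differences -2.02, -2.01 and -2.18, SE 0.26, adjusted p = 1.76e-05, 1.25e-05 and 6.06e-06).

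TOH1 (PAS_chr2-2_0271, chromosome 2, 1882754 to 1883968, minus strand) is described in the authors' deposited table as a glucan endo-beta-glucosidase, and its S. cerevisiae namesake is an anchored cell wall protein. In WT it stood at 103, 161 and 137 RPKM at T0, 352, 380 and 324 at T15, 580, 504 and 378 at T30, and 219, 305 and 201 at T60. In crz1 it stood at 26.1, 19.8 and 17.5 RPKM at T0, 37.0, 36.1 and 22.2 at T15, 23.4, 22.8 and 23.3 at T30, and 10.5, 11.01 and 10.7 at T60. Every crz1 library was below every WT library at each of the 4 times, T0 at pH 5.5 included. In rim101 it stood at 105 and 176 RPKM at T0, 700.2 and 1013 at T15, 1011 and 885 at T30, and 297 and 335 at T60. Both rim101 libraries were above all 3 WT libraries at T15 and at T30, and overlapped with WT at T0 and at T60.

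Between the strains, the gap in TOH1 widened from T0 to T30 and was about the same at T60. Its mean in crz1 was 15.8% of the WT mean at T0, 9.03% at T15, 4.76% at T30 and 4.44% at T60. On the log2(RPKM + 1) scale the difference was -2.60 at T0, -3.46 at T15, -4.31 at T30 and -4.35 at T60 (SE 0.23 at each). Of the value at T60, -2.60 was already there at T0, and the differing changes since T0 gave a further -1.75. At T60 all 3 WT libraries were above their T0 range and all 3 crz1 libraries were below theirs. Ordered by mean over the 12 groups, TOH1 ran from rim101 T30 (948 RPKM) and rim101 T15 (857) through WT T30 (488), WT T15 (352), rim101 T60 (316) and WT T60 (242) to rim101 T0 (141) and WT T0 (134). The crz1 groups followed, with T15 at 31.8, T30 at 23.2, T0 at 21.1 and T60 at 10.7 RPKM. Neighbours in this order had libraries that overlapped, except below rim101 T15, below WT T60, below WT T0 and below crz1 T0. In the authors' deposited table, which takes WT T0 as the reference, the log2 fold change of TOH1 was 1.34 for WT T30, -3.05 for crz1 T30 and 1.90 for rim101 T30.

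**Figure D1:**
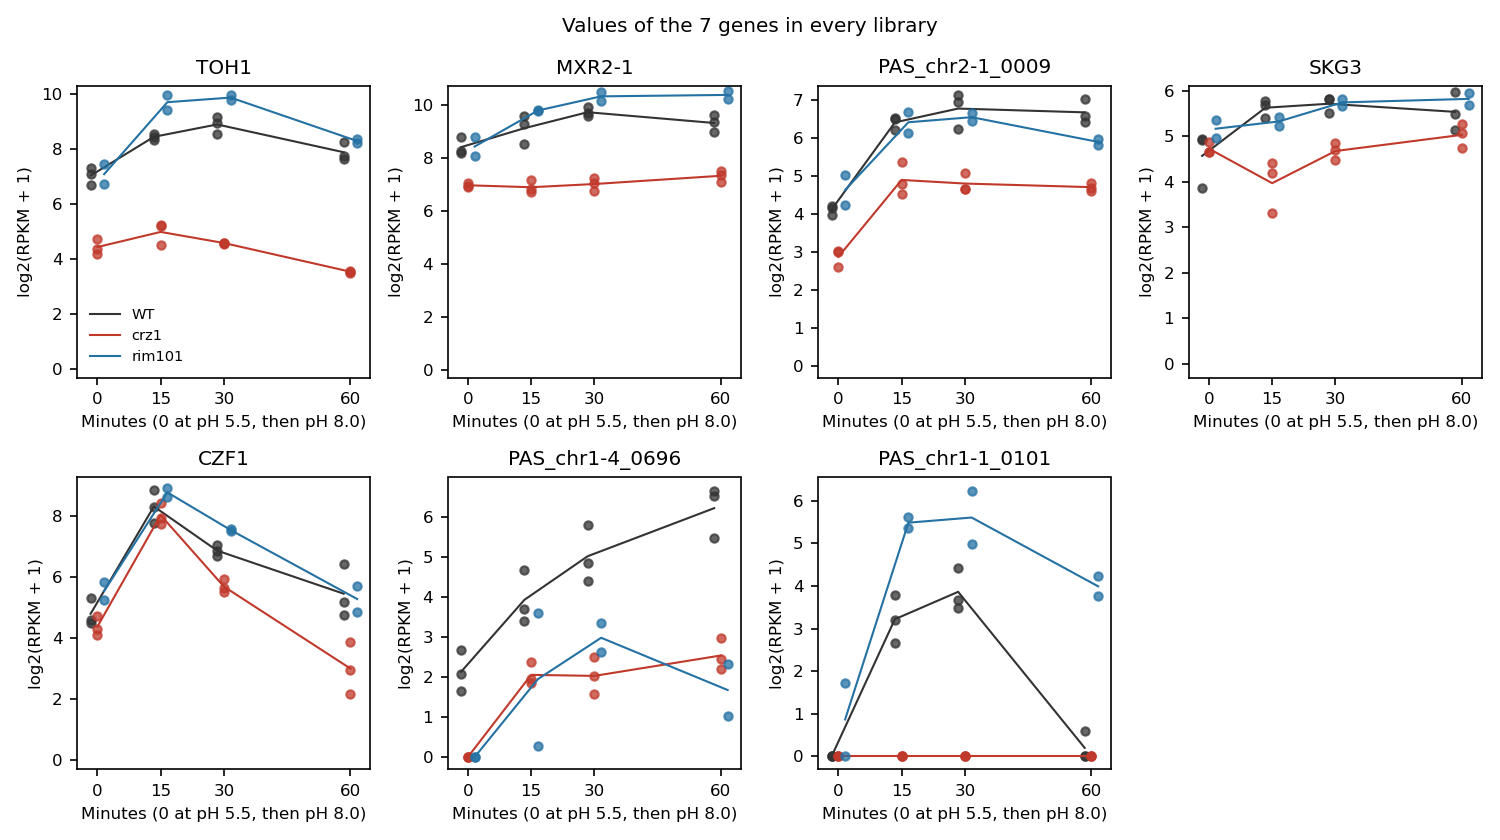
Each panel plots 1 gene, with log2(RPKM + 1) on the vertical axis and minutes on the horizontal axis (0 at pH 5.5, then pH 8.0); points are libraries and lines join group means for WT (black), crz1 (red) and rim101 (blue). In the TOH1 panel the crz1 libraries lie between 10.5 and 37.0 RPKM, below every WT and rim101 library.

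MXR2-1 (PAS_chr2-1_0008, chromosome 2, 13442 to 13843, plus strand) encodes a peptide-methionine (R)-S-oxide reductase, an enzyme that repairs oxidised methionine in proteins. WT values were 289, 434 and 304 RPKM at T0, 611, 769 and 361 at T15, 752 (replicate 1), 973 and 814 at T30, and 496, 660 and 781 at T60. The crz1 values were 118, 123 and 130.5 RPKM at T0, 103, 111 and 141 at T15, 107, 148 and 131 at T30, and 135, 182 and 163 at T60. Here crz1 was nearly flat, and all its 12 libraries were below all 12 of WT. The rim101 libraries stood at 267 and 438 RPKM at T0, 889 and 871 at T15, 1124 and 1446 at T30, and 1197 and 1465 at T60. At each of the 3 times at pH 8.0 both rim101 libraries were above all 3 of WT.

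MXR2-1 in crz1 was 36.1% of WT at T0, 20.4% at T15, 15.2% at T30 and 24.8% at T60. The log2 difference went from -1.44 at T0 to -2.71 at T30 (SE 0.24 at each). The genome holds a second gene of this name, MXR2-2, and one for the (S)-form of the oxide, MXR1-1. MXR2-2 did not pass between crz1 and WT at T0, T15, T30 or T60 in limma's test (log2 differences -0.82, 0.03, -0.03 and -0.20, SE 0.45, adjusted p = 0.697, 0.987, 1 and 0.956). Its T0 value rests on WT libraries at 46.2, 385 and 52.5 RPKM. MXR1-1 did not pass either (-0.86, -0.34, -0.43 and -0.21, adjusted p = 0.871, 0.857, 1 and 0.974), with SE 0.79 and libraries of 1 group that ran from 207 to 745 RPKM at WT T15.

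PAS_chr2-1_0009 (chromosome 2, 14152 to 15947, minus strand) lies 308 bases from MXR2-1, with the 2 genes pointing toward each other. It encodes a protein with C2H2-type zinc fingers, a fold that usually binds DNA or RNA. In WT it stood at 16.9, 14.7 and 17.4 RPKM at T0, 89.8, 88.5 and 73.2 at T15, 139, 121 and 74.2 at T30, and 94.5, 128 and 83.7 at T60. In crz1 it stood at 6.93, 7.09 and 5.11 RPKM at T0, 40.3, 26.3 and 22.1 at T15, 32.5, 24.3 and 24.2 at T30, and 27.0, 23.3 and 24.8 at T60. All crz1 libraries were below all WT libraries at each time, yet within crz1 all later libraries were above all those of T0. The mean in crz1 was 39.0%, 35.3%, 24.2% and 24.5% of WT at T0, T15, T30 and T60. Its change since T0 at T30 was 2.65 in WT and 1.92 in crz1 on the log2 scale (SE 0.26). Because the libraries were not directional, reads that run past the end of one of these neighbours into the other cannot be told apart.

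In rim101, PAS_chr2-1_0009 stood at 17.6 and 31.7 RPKM at T0, 69.1 and 101.4 at T15, 98.5 and 85.7 at T30, and 54.8 and 61.9 at T60. Unlike its neighbour MXR2-1, it was not above WT at pH 8.0, and at T60 both rim101 libraries were below all 3 of WT.

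SKG3 (PAS_chr4_0633, chromosome 4, 1230147 to 1232771, plus strand) encodes a protein with a PH domain, a module that often binds membrane lipids. WT stood at 29.5, 13.5 and 29.3 RPKM at T0, 54.1, 50.8 and 41.4 at T15, 44.4, 55.4 and 55.7 at T30, and 34.4, 44.1 and 61.8 at T60. In crz1 the values were 24.1, 24.2 and 28.5 RPKM at T0, 8.90, 17.4 and 20.2 at T15, 21.2, 25.1 and 27.8 at T30, and 25.9, 32.5 and 37.9 at T60. The strains overlapped at T0 and at T60 and stood apart at T15 and T30, whereas for TOH1 they stood apart at T0 too. The overlap of SKG3 at T0 rests on WT replicate 2 (13.5 RPKM), since the other WT libraries were above all those of crz1. At T15 all 3 WT libraries were above their T0 range and all 3 crz1 libraries below theirs. The log2 difference between crz1 and WT was 0.16 at T0, -1.66 at T15, -1.04 at T30 and -0.505 at T60 (SE 0.29). Its value at T0 turned to -0.20 without WT T0 replicate 2. In rim101 the gene stood at 30.3 and 40.2 RPKM at T0 and between 36.5 and 61.2 RPKM in the 6 libraries at pH 8.0, which overlapped with WT at each of the 3 times.

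CZF1 (PAS_chr4_0252, chromosome 4, 511111 to 511764, minus strand) encodes a protein with a Zn(2)-C6 zinc cluster, and its Candida albicans namesake is a regulator of filamentous growth. It gave a short peak in WT, from 38.3, 21.7 and 22.7 RPKM at T0 to 309.5, 218 and 463 at T15, 114, 100.98 and 132 at T30, and 25.7, 85.4 and 35.0 at T60. The same peak stood in crz1, from 25.4, 18.5 and 16.1 RPKM at T0 to 241, 343 and 209 at T15, then 44.2, 59.4 and 48.5 at T30 and 3.44, 13.7 and 6.75 at T60. The strains overlapped at T0 and T15, and crz1 was lower in every library at T30 and T60. At T60 all 3 crz1 libraries were also below their own T0 range. The mean in crz1 was 80.1% of WT at T15, 43.8% at T30 and 16.4% at T60, with log2 differences of -0.28, -1.18 and -2.45 (SE 0.40). For CZF1 the strains thus stood apart in the libraries after the peak at T15. Whether the rise differed was not tested, and no library lies between T0 and T15. In rim101 it stood at 37.1 and 55.3 RPKM at T0, 391.8 and 482 at T15, 181 and 187 at T30, and 27.6 and 51.2 at T60, with T30 above all WT libraries.

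PAS_chr1-4_0696 (chromosome 1, 2568910 to 2570694, minus strand) is described as a beta-mannosyltransferase, an enzyme type that adds beta-linked mannose to cell wall glycans in K. phaffii. In WT its mean kept rising, with libraries at 2.14, 3.21 and 5.32 RPKM at T0, 9.58, 12.1 and 24.3 at T15, 54.3, 27.8 and 20.1 at T30, and 90.5, 99.1 and 43.5 at T60. The WT libraries of T15 and T30 overlapped, as did those of T30 and T60. In crz1 it was listed at 0 in all 3 libraries at T0 and stood between 1.96 and 6.82 RPKM in the 9 libraries at pH 8.0, which is 26 to 97 reads. In rim101 it was listed at 0 in both libraries at T0 and stood at 0.2205 and 11.15 RPKM at T15, 9.135 and 5.12 at T30, and 4.03 and 1.02 at T60. Both mutants were thus below all WT libraries at T0, T30 and T60, with crz1 at 6.37% and rim101 at 3.25% of the WT mean at T60. Its highest WT values were in higher-median libraries (T30 replicate 1, and T60 replicates 1 and 2), and their part in the level was not tested.

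PAS_chr1-1_0101 (chromosome 1, 740817 to 742283, plus strand) encodes a protein with an arrestin-like domain, and in S. cerevisiae such proteins often act as adaptors that mark membrane transporters for removal. It was listed at 0 in all 12 crz1 libraries. In WT it was listed at 0 in all 3 libraries at T0, stood at 12.8, 5.36 and 8.19 RPKM at T15 and 20.5, 10.2 and 11.8 at T30, and was back at 0, 0 and 0.51 at T60. In rim101 it stood at 0 and 2.32 RPKM at T0, 48.1 and 39.8 at T15, 74.3 and 30.5 at T30, and 17.7 and 12.5 at T60. Both rim101 libraries were above all 3 WT libraries at each time at pH 8.0, with means 5.01 times WT at T15 and 3.70 times at T30. The signal was still present at T60 in rim101, where WT was at or near a listed 0. No fold is given against crz1.

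Over the 7 genes, crz1 lay below WT in every library for 4 at T0 (2.18% of the 4226 tested genes do so), 6 at T15 (3.31%), 7 at T30 (3.1%) and 5 at T60 (1.89%). The choice of the genes used these same values, so nothing is read from those counts. The median log2 difference of the 7 was -1.24, -1.87, -2.71 and -1.99 at T0, T15, T30 and T60, beside 0.18, 0.26, 0.04 and -0.14 for all tested genes. Their courses differed. TOH1, MXR2-1 and PAS_chr2-1_0009 were lower in crz1 already at pH 5.5. So was PAS_chr1-4_0696, listed at 0 in crz1 against 2.14 to 5.32 RPKM in WT. SKG3 and CZF1 overlapped at T0 and separated later, at T15 for SKG3 and at T30 for CZF1. These overlaps at T0 rest on WT replicate 2 for SKG3 and on crz1 replicate 1 for CZF1. PAS_chr1-4_0696 stayed under 7 RPKM in every crz1 library and PAS_chr1-1_0101 was listed at 0 in all of them. Since RPKM come from whole cultures, a lower level in every cell and expression in fewer cells cannot be told apart.

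**Figure D2:**
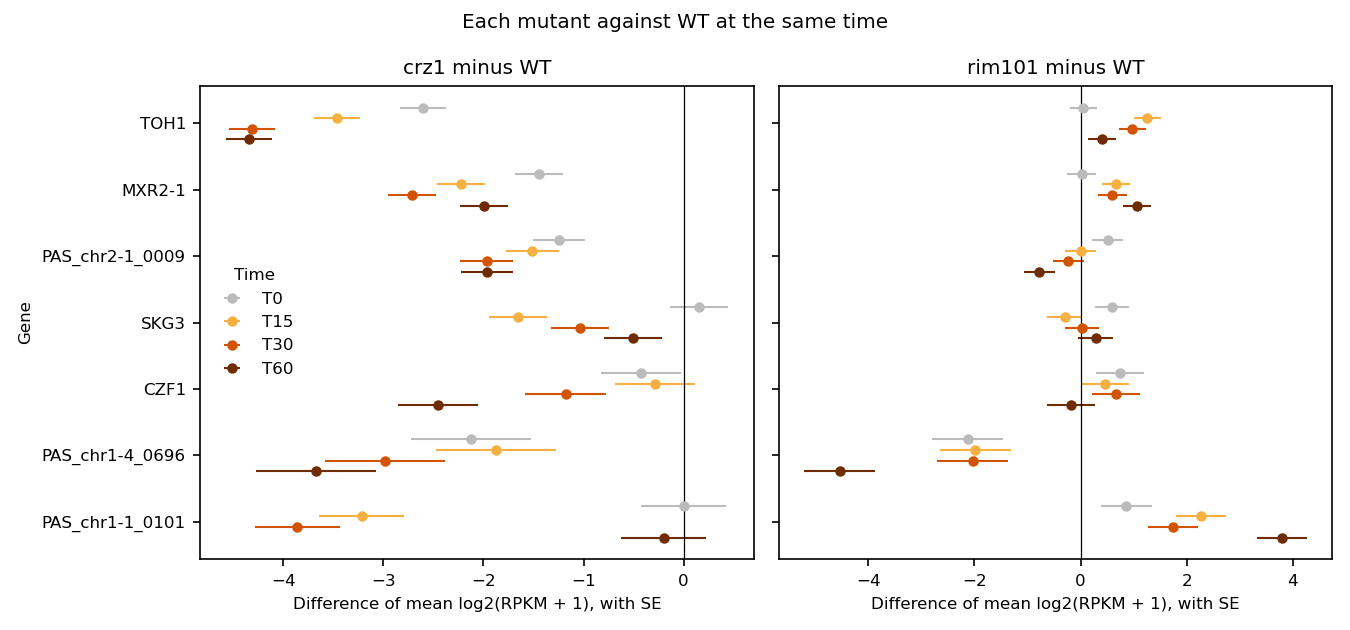
Differences of mean log2(RPKM + 1) from WT at the same time are plotted on the horizontal axis for each of the 7 genes, for crz1 on the left and rim101 on the right; points are coloured by time and bars are the SE of the fit. TOH1 moves from -2.60 to -4.35 in crz1, while in rim101 PAS_chr1-4_0696 is below 0 and PAS_chr1-1_0101 above 0 at every time at pH 8.0.

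Changes of these genes after the shift to pH 8.0 were tested within the rim101 libraries, whose values the rule for choosing the genes did not use. Earlier results of these data were known when genes and tests were chosen. A gene rose where limma's two-sided moderated test, fitted over all 4226 tested genes and adjusted by Benjamini-Hochberg, gave an adjusted p under 0.05. Of the 7 genes 5 rose at T15 (5.47% of all tested genes did), 6 at T30 (23.5%) and 4 at T60 (2.72%), and 0 fell (2.7%, 4.64% and 1.14%). The median log2 change of the 7 was 1.95, 2.00 and 1.26, beside 0.41, 0.85 and 0.13 for all tested genes. TOH1 rose by 2.62 on the log2 scale at T15 (SE 0.28, adjusted p = 9.34e-07), 2.79 (adjusted p = 2.54e-07) at T30 and 1.21 (adjusted p = 0.012) at T60, with both later libraries above both of T0 each time. MXR2-1 rose by 1.36 (SE 0.29, adjusted p = 0.00421), 1.90 (adjusted p = 0.00011) and 1.95 (adjusted p = 0.000233). PAS_chr2-1_0009 rose by 1.78 (SE 0.32, adjusted p = 0.00076), 1.91 (adjusted p = 0.000258) and 1.26 (adjusted p = 0.0226). Of these 3 genes, TOH1 and PAS_chr2-1_0009 were lower at T60 than at T30 in both rim101 libraries, while the MXR2-1 libraries of T30 and T60 overlapped.

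PAS_chr1-1_0101 rose at all 3 times in rim101, by log2 changes of 4.62 (SE 0.52, adjusted p = 1.78e-06), 4.74 (adjusted p = 8.67e-07) and 3.13 (adjusted p = 0.000546). CZF1 rose at T15 by 3.23 (SE 0.49, adjusted p = 0.000103) and at T30 by 2.00 (adjusted p = 0.00703), and gave -0.26 (adjusted p = 0.997) at T60. PAS_chr1-4_0696 passed at T30 (adjusted p = 0.00706) and missed at T15 and T60 (adjusted p = 0.109 and 0.291), from a T0 listed at 0. SKG3 missed the threshold throughout, its changes being 0.16, 0.58 and 0.66 (SE 0.36, adjusted p = 0.801, 0.178 and 0.469), and the first 2 turned negative when libraries were scaled by median ratios (-0.19 and -0.17) or quantile-normalized (-0.38 and -0.43). With 2 libraries per group these tests lean on the spread pooled over all 12 groups. Fitted on the rim101 libraries alone, 1 gene rose at T60 (MXR2-1), and the calls of TOH1 and PAS_chr2-1_0009 at T60 were lost without rim101 T0 replicate 1 or either T60 library, leaving 2. The median change of all tested genes at T30, 0.85, went to 0.13 under the first of these scalings and -0.01 under the second, and at T15 it went from 0.41 to 0.07 and -0.02. Some calls were lost with these scalings, MXR2-1 at T15 with both (adjusted p = 0.215 and 0.0752) and at T30 with median-ratio scaling (0.0947), and CZF1 at T30 with both (0.0966 and 0.114). CZF1 at T30 was also lost without rim101 T0 replicate 1 or T30 replicate 1 (adjusted p = 0.0895 and 0.0565), as was PAS_chr1-4_0696 (0.0537 and 0.103), and MXR2-1 at T15 without rim101 T0 replicate 1 (0.143). Both rim101 libraries at T30 are of the higher-median type, as is T15 replicate 2. Without the higher-median libraries no T30 library of rim101 remains, and 5 of the 7 rose at T15 and 5 at T60.

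Set beside these, the changes of WT and crz1 share libraries with the choice of the genes and are given with no test. In WT the median log2 change of the 7 was 1.80, 2.07 and 0.91 at T15, T30 and T60 (all tested genes 0.17, 0.62 and 0.65), and in crz1 it was 0.55, 0.15 and 0.30 (0.24, 0.43 and 0.29). All 3 later WT libraries were above all 3 of T0 for 6, 7 and 5 of the 7 genes (21.3%, 31% and 28.4% of tested genes), those of crz1 for 3, 3 and 3 (23.1%, 34.5% and 26.7%), and the later pair of rim101 for 6, 7 and 6 (34.2%, 67.3% and 35.3%). The change of TOH1 was 1.41, 1.86 and 0.85 in WT and 0.55, 0.15 and -0.90 in crz1 (SE 0.23). For MXR2-1 it was 0.71, 1.32 and 0.91 in WT and -0.07, 0.05 and 0.36 in crz1 (SE 0.24). For CZF1 it was 3.51 at T15 in WT and 3.65 in crz1, and then 2.07 and 0.66 in WT against 1.31 and -1.37 in crz1 (SE 0.40). The crz1 values of TOH1 and MXR2-1 thus stayed within 1 unit of their T0 on this scale. So did those of WT for TOH1 at T60 and for MXR2-1 at T15 and T60. All 3 crz1 libraries of TOH1 at T60 were nevertheless below their T0 range. CZF1 at T15 lay as far above its T0 in crz1 as in WT, within the SE.

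**Figure D3:**
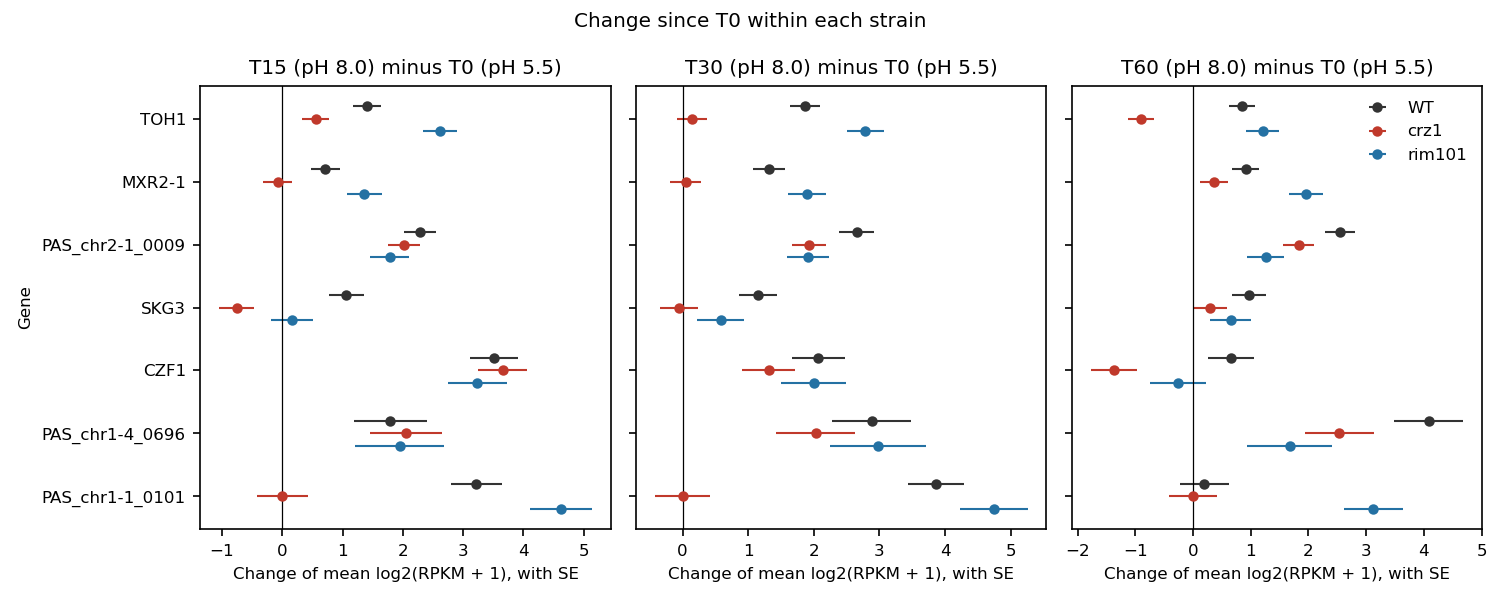
Changes of mean log2(RPKM + 1) since T0 within each strain are plotted for each of the 7 genes at T15, T30 and T60; points are WT (black), crz1 (red) and rim101 (blue), and bars are the SE of the fit. TOH1 in rim101 reaches 2.79 at T30, while in crz1 it lies at 0.15.

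Against WT, rim101 showed no single direction. Its mean TOH1 level was 2.435 times that of WT at T15 and 1.945 times at T30 (log2 differences 1.26 and 0.98, SE 0.26). Its mean MXR2-1 level was 1.52 times WT at T15 and 2.06 times at T60. Both rim101 libraries were above all WT libraries for 2 of the 7 genes at T0 (14.1% of tested genes are), 3 at T15 (14.7%), 4 at T30 (23.2%) and 2 at T60 (11.5%). These differences share WT libraries with the choice of the genes and carry no test, and the rim101 libraries at T30 are all of the higher-median type, as are 2 of the 3 WT libraries at T60. Their part in these differences was not tested. The 2 genes above WT at T60 were MXR2-1 and PAS_chr1-1_0101. Both rim101 libraries were below all WT libraries for PAS_chr1-4_0696 at T0, T30 and T60, and for PAS_chr2-1_0009 at T60.

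Genes next to a member on the chromosome were not chosen on values, and crz1 could be tested against WT there. Leaving out the members, 12 genes flank the 7, of which 9 passed the filter on low values. Among the 9 is NUP192, the only tested neighbour of TOH1. It reached at most 1.86 RPKM in a WT library and 1.62 in a crz1 library. Only in rim101 was it higher, with means of 8.14 RPKM at T15 and 10.7 at T30. So near 0 in WT and crz1, its test cannot show a difference, and the flank of TOH1 is left undecided. In limma 0 of the 9 differed between crz1 and WT at T0, T15, T30 or T60 (0.071%, 0.568%, 0.426% and 0.26% of all tested genes did in either direction), and at an unadjusted p under 0.05 there were 1, 0, 1 and 1 (7.29%, 3.24%, 2.7% and 2.77% of all tested genes). SWI6, a transcription cofactor of the cell cycle that ends 20 bases from SKG3, had log2 differences of 0.27, 0.28 and 0.41 (SE 0.34). PAS_chr2-1_0007 lies 674 bases from MXR2-1 on the other side, pointing away from it. It stood at 20.6, 11.04 and 3.385 RPKM in WT at T30 and 31.6, 35.2 and 3.149 at T60, and was listed at 0 in all 3 crz1 libraries at T30 and in 2 of 3 at T60. Its adjusted p was 0.186 at T30 and 0.357 at T60, and 1 of the 9, this gene, passed at T60 when WT T60 replicate 3 was left out. The WT values of this gene were highest in higher-median libraries, and their part was not tested.

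**Figure D4:**
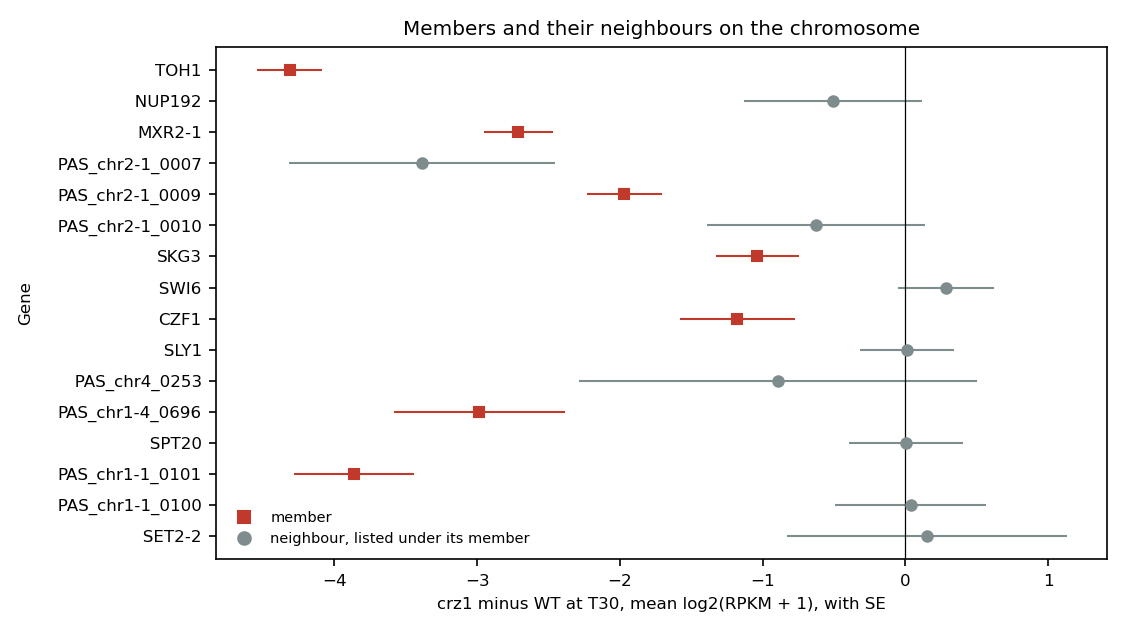
The difference of crz1 from WT at T30 in mean log2(RPKM + 1), with the SE of the fit, is plotted for the 7 members (red squares) and, listed under each, for its tested neighbours on the chromosome (grey circles). TOH1 lies at -4.31 and PAS_chr2-1_0007, which did not pass the test, at -3.39.

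The calcium pathway that feeds Crz1 and the targets of Crz1 known in S. cerevisiae were taken as 2 lists. Of 16 symbols of calcium handling and calcineurin 9 were found by exact symbol and tested, and of 15 known targets 10 were. Genes listed under another name would have been missed. The lists share 3 genes, and none of the 7 members is in either. Over both lists, 1 of 16 genes was lower in crz1 at T15 (0.568% of tested genes were), namely PMC1, the vacuolar calcium pump, and 2 at T30 (0.426%), PMC1 and the calmodulin-dependent kinase CMK2. In limma 0 of the 16 were lower at T0 (0.0473%) or at T60 (0.237%), and 0 were higher at any time (0.0237% of tested genes were at T0 and at T60). At an unadjusted p under 0.05 the 16 held 0, 5, 4 and 1 lower genes at T0, T15, T30 and T60 (1.68%, 2.3%, 2.2% and 1.23% of all tested genes), and 1, 0, 0 and 0 higher ones (5.61%, 0.947%, 0.497% and 1.54%). The median log2 difference of the 16 was -0.01, -0.21, -0.11 and -0.06 at T0, T15, T30 and T60, beside 0.18, 0.26, 0.04 and -0.14 for all tested genes. PMC1 was at 74.8, 60.7 and 67.8 RPKM in WT and 21.5, 23.5 and 20.1 in crz1 at T15, a log2 difference of -1.60 (SE 0.28, adjusted p = 0.00379). At T30 PMC1 gave -1.54 (adjusted p = 0.00712) and CMK2 -0.96 (SE 0.19, adjusted p = 0.0137). PMC1 thus followed SKG3 in overlapping with WT at T0 (12.2 to 12.6 RPKM in crz1, 11.2 to 14.5 in WT) and standing apart at T15 and T30. Without 1 of the libraries WT T30 replicate 1 or crz1 T30 replicate 1, 2 or 3, the number of these genes that passed at T30 went from 2 to 1, 0, 1 and 1.

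Likeness over the 12 group means of log2(RPKM + 1) was searched among 3311 other genes with a mean of at least 10 RPKM, as a description. For TOH1 the highest Pearson correlations were those of PAS_chr3_0588 and SCP1 (r = 0.952 each, n = 12 groups), and of PAS_chr3_1232 (0.941). PAS_chr3_0588 and SCP1 overlap on opposite strands and are listed with equal values in every library, so they count as 1. None of the 7 members, their tested neighbours or the genes of the 2 lists has values equal to those of another gene. PAS_chr3_1232 was also among the 3 most like MXR2-1 (0.929). PAS_chr2-1_0171 (0.954) and PAS_chr4_0767 (0.940) were the other 2 for MXR2-1. For PAS_chr1-1_0101 they were OSH3 (0.950), of the oxysterol-binding protein family, PAS_chr2-1_0116 (0.944) and BAG7 (0.941), a regulator of the small GTPase Rho1. BAG7 is on the list of known Crz1 targets. BAG7 did not pass between crz1 and WT in limma (log2 differences -0.09, -1.02, -0.85 and -0.11 at T0, T15, T30 and T60, SE 0.37). Its crz1 libraries were nevertheless all below those of WT at T15 (15.7 to 23.2 against 37.4 to 47.5 RPKM). The same held at T30 (18.9 to 24.5 against 35.5 to 45.2 RPKM). Of all tested genes 3.31% and 3.1% did so at these times. For PAS_chr2-1_0009 they were PAS_chr4_0779 (0.938), ROT1 (0.927) and PAS_chr2-2_0330 (0.918), for SKG3 PAS_chr1-4_0398 (0.923), PAS_chr4_0767 (0.904) and the myosin MYO3 (0.883), and for CZF1 MET1 (0.887), GAD1 and PAS_chr2-1_0018 (0.879 each). PAS_chr1-4_0696 had the least like partners, PAS_chr4_0883 (0.799), YHC3 (0.798) and YPS7 (0.779). Among the 7 themselves r was highest for TOH1 with MXR2-1 (0.938) and lowest for SKG3 with CZF1 (0.158). The 12 points share strains, times and the 2 types of library, and include the crz1 and WT groups that chose the members, so no test between crz1 and WT is given for these genes beyond that of BAG7 as part of its list.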

How the data were processed

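The authors' deposited table gives RPKM for 5040 genes in 32 libraries of poly-A RNA that were not directional per the labels. Per the submitters' processing notes, Bowtie2 and edgeR were among the tools; neither their versions nor a genome build could be taken from the sources used here. All 5040 identifiers and coordinates matched the reference gene table, which gave chromosome numbers. A second table deposited by the authors gives each group against WT T0 as a log2 fold change, a p-value and an adjusted p-value, of which log2 fold changes of TOH1 are quoted. Gene symbols come from that table.

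Here log2(RPKM + 1) of the 4226 genes with a mean of at least 1 RPKM (all 7 members passed) was fitted with limma 3.58.1 in R 4.3.3, with 12 groups, an intensity trend, 20 residual degrees of freedom and no block. P-values are two-sided, adjusted by the Benjamini-Hochberg method over all tested genes. Nothing in the labels says that replicates are separate cultures, so p-values measure the spread between these libraries. No count test was run, since no counts were used. Depth was read from the step between low values, of which 94.6% to 98.7% were whole reads to a tolerance of 0.1 in 30 libraries, while 2 had no single step. In 431 cases a gene at 0 in 1 library had at least 20 RPKM in another of its group. Python 3.11.15 with pandas 2.3.3, numpy 2.4.6 and matplotlib 3.10.9 did the rest. The fit was tested on simulated data.

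The members, lists and tests were chosen with earlier results of these data known. Named are the members, their neighbours, genes with the same symbol stem, CRZ1, RIM101, members of the lists that passed, and for each member the 3 genes with the most like group means. Alternatives were pseudocounts of 0.5 and 5, other filters, median-ratio and quantile scaling, fits per strain, no trend, a replicate block and leaving out libraries. A planned search of promoters for Crz1 motifs was not run.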

Additional observations from a re-analysis of the deposited data

Results flagged for a closer look

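TOH1 at T60 moved in opposite directions in different strains. Its mean log2 change since T0 was 0.85 in WT and -0.90 in crz1, with every WT library above its T0 mean and every crz1 library below its own, a difference of -1.75. Against rim101, whose change was 1.21, the crz1 change differed by -2.10. SKG3 did the same at T15, with a change of 1.06 in WT and -0.76 in crz1, a difference of -1.82. In rim101 its change was 0.16, from which that of crz1 differed by -0.92, and the rim101 change did not pass its own test. These differences were not tested, since the genes were picked for low values in crz1.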

How the results depend on the processing

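The labels give no shared batch to a replicate number, and not every correlation of same-numbered libraries' deviations was over 0.1, so the numbers were not taken to pair the libraries. Within WT 7 of 18 were over 0.1 (-0.526 to 0.819), within crz1 16 of 18 (-0.031 to 0.877) and within rim101 10 of 12 (0.0869 to 0.33). In rim101 the 2 libraries of a group deviate from their mean by opposite amounts, so each correlation is counted for both replicate numbers. Between strains 8 of 12 were for WT with crz1 (-0.638 to 0.903), 5 of 8 for WT with rim101 and 2 of 8 for crz1 with rim101. A library correlated best with its own number in 14 of 36 comparisons with another time within WT and in 25 of 36 within crz1, a hint from the data for crz1. With the replicate block 5, 6 and 4 members rose in rim101 at T15, T30 and T60, and no call of a member changed. Leaving out 1 library gave 4 to 6 rising members at T15, 4 to 6 at T30 and 2 to 4 at T60, and a fit on rim101 alone gave 1 at T60. The median difference of crz1 from WT kept its sign at every time under every setting run, and ran without 1 library from -1.31 to -1.11 at T0, -2.13 to -1.77 at T15, -2.82 to -2.58 at T30 and -2.17 to -1.96 at T60. A pseudocount of 5 gave -0.76, -1.43 and -1.90 at T0, T15 and T30, since low genes are pulled together, and quantile normalization gave -2.36 at T15, where the cause was not tested. Over both pathway lists, 2 genes that passed at T30 became 1 with median-ratio scaling, 0 with quantile normalization and 0 without the higher-median libraries, where T15 gave 2. They were 0 to 2 without 1 library, and flanking genes at T60 were 0 to 1. Values that did not pass changed sign for SKG3 in rim101 with median-ratio scaling (-0.19 at T15, -0.17 at T30), with quantile normalization (-0.38 and -0.43) and without rim101 T0 replicate 1 (-0.0383 at T15, within a range of -0.0383 to 0.36 without 1 library). SKG3 in crz1 at T0 turned to -0.0433 with quantile normalization and -0.20 without WT T0 replicate 2, within a range of -0.20 to 0.34. CZF1 in rim101 at T60 turned to 0.02 without T0 replicate 2 and 0.17 without T60 replicate 1, within a range of -0.69 to 0.17. Members listed at 0 limit any fold for PAS_chr1-1_0101 and PAS_chr1-4_0696.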
